A study of Mus musculus with 10 samples.

Results

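The transcription factor genes that set up the TH1 and effector programmes of CD4 T cells were compared between TOX knockout (KO) and TOX wild type (WT) cells. The set held 9 genes, Tbx21, Eomes, Runx3, Stat4, Hlx, Id2, Zeb2, Bhlhe40 and Prdm1, chosen by name from the 53656 genes of the count tables, and all 9 were found. The cells were TCRSMARTA CD4 T cells, whose transgenic receptor recognises a peptide carried by the B16-GP61 melanoma. They were transferred as naive cells into B6 mice that had been given cytoxan (cyclophosphamide) and bore that tumour, and were sorted from the tumour-draining lymph node on day 11. KO cells (6 libraries) were sorted as Ly5.1+ and Ly5.2-, and as low for PD1, LAG3 and CD39, and WT cells (4 libraries) as Ly5.1+ and Ly5.2+, and as high for those 3 proteins. Genotype, congenic marker and gate therefore cannot be told apart, and all groups share the receptor transgene, the drug and the tumour. The labels name no animals. The p-values therefore reflect how far these libraries spread, which could be technical.

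TH1 cells are helper T cells that make interferon gamma. IL-12, acting through STAT4, and interferon gamma raise T-bet, the product of Tbx21, which then works with RUNX3 and HLX. ID2, ZEB2, BLIMP-1 (from Prdm1) and BHLHE40 act further along, in effector cells, while BCL6, ID3, TCF1 and BACH2 hold the follicular helper and memory-like states.

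Depth was 31939816 to 55784453 counts per library. Tox stood at 31.0 ± 20.8 CPM (counts relative to the TMM-scaled library size; SD, n = 6) in KO and 236 ± 88.0 CPM (SD, n = 4) in WT, and it fell (log2 fold change -2.93, SE 0.48, edgeR adjusted p = 0.0102). Of the genes of the sort proteins, Lag3 did not follow its gate (log2 fold change 1.15, edgeR adjusted p = 0.589). It held 83.4, 147 and 427 CPM (lowest, median and highest) in the LAG3-low KO libraries. The LAG3-high WT libraries held 7.53, 22.6 and 320 CPM. Pdcd1, the PD1 gene, followed its gate and passed (-1.34, edgeR adjusted p = 0.0163). For Pdcd1 every KO library (at most 515 CPM) lay below every WT library (at least 812 CPM). Entpd1, the CD39 gene, was also lower in KO on average (-3.48, edgeR adjusted p = 0.206), but its groups overlapped and it did not pass. All 8 CD4 T cell markers checked had counts in both groups, and their summed level was 18586 to 23082 CPM in KO and 7917 to 15442 CPM in WT. Summed B cell markers stood at 75.5 to 304 CPM in KO and 2594 to 9662 CPM in WT, with 6 of 8 lower in KO by the test. The labels also carry a library number, whose meaning they do not give. The 4 libraries numbered 1 to 3 (3 KO, WT replicate 1) had 14365 to 15873 genes with a count, and the 6 numbered 4 to 8 (3 KO, 3 WT) had 16348 to 19775.

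Of the 9 genes, 8 passed the filter on low counts, and 0 were higher and 0 lower in KO at an adjusted p under 0.05 (edgeR quasi-likelihood test). Over all 14214 genes tested the share called was 3.13%. At an unadjusted p under 0.05 there were 4 members, Eomes, Zeb2 and Prdm1 lower and Id2 higher, against 18.0% of all genes. DESeq2 called 3 members lower in KO (7.03% of all genes were), limma-voom called 3 (4.78%), and limma-voom with quality weights called 4 (19.5%). Without WT replicate 1 edgeR called 2 lower, Zeb2 and Prdm1 (7.90%), and with library sizes scaled to 8 T cell receptor complex genes it called 3, Stat4, Zeb2 and Prdm1 (13.1%). In 2 of the 9, Eomes and Prdm1, every KO library lay below every WT library. Of all genes, 8.90% did not overlap, 6.31% with KO below WT and 2.59% with KO above. The median log2 fold change of the tested members was -0.74, beside -0.12 over all genes. In bulk RNA, fewer cells of a type and less RNA per cell cannot be told apart.

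**Figure D1:**
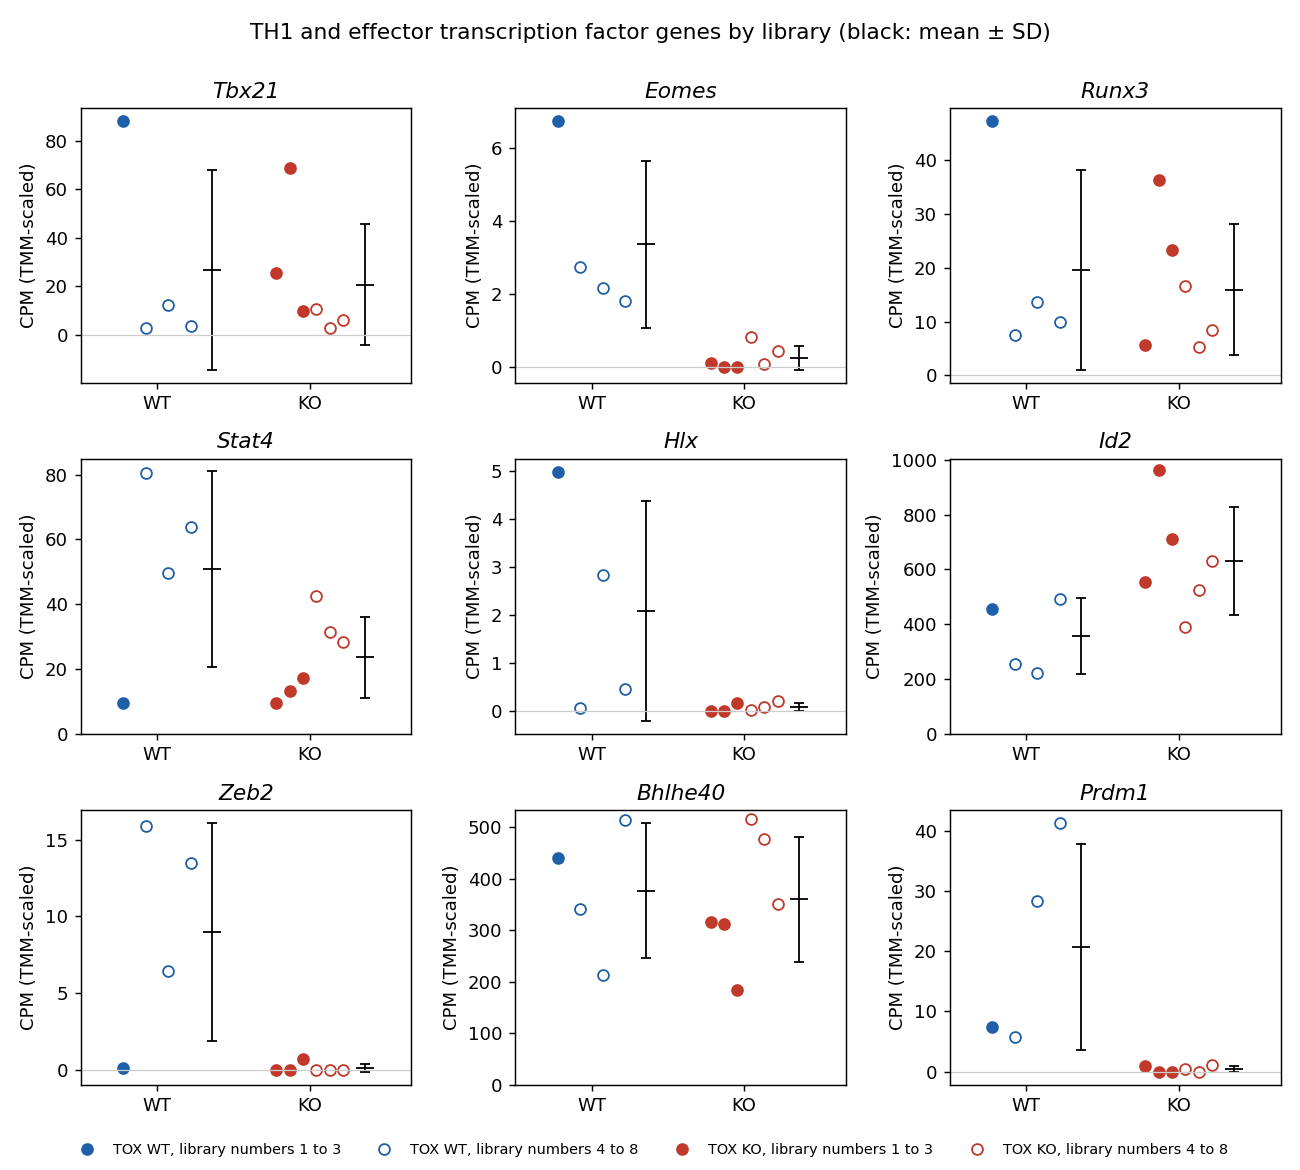
Level of each of the 9 genes in every library, in TMM-scaled CPM on a linear axis of its own, for WT (blue, n = 4) and KO (red, n = 6). Filled points are libraries numbered 1 to 3 and open points those numbered 4 to 8, and black marks give the mean and SD. Eomes and Prdm1 do not overlap between the groups, while the highest Tbx21 values are the filled points of WT replicate 1 (88.3 CPM) and KO replicate 2 (69.0 CPM).

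Upstream sequence is shown for Prdm1 and Eomes, whose groups did not overlap, and for Id2, the tested member with a positive fold change. The runs are the 250 bases before the RefSeq start in GRCm38.p6, on the gene's own strand and written 5′ to 3′. Capitals mark an E-box (CANNTG), the kind of site that ZEB, E protein and BHLHE40 factors recognise. Prdm1 is read from chr10:44458749-44458998 on the minus strand, Eomes from chr9:118477939-118478188 on the plus strand and Id2 from chr12:25096093-25096342 on the minus strand. The Prdm1 and Id2 windows lie inside the spans of those genes in the count annotation, given below. They are thus upstream of a RefSeq start but not of the whole counted gene. The Eomes window lies before its counted span.
Prdm1: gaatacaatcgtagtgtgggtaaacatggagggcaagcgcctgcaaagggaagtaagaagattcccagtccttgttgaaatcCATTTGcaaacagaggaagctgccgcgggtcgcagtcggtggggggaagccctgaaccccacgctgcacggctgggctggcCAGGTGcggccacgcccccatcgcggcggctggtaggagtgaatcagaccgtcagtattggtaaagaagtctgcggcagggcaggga
Eomes: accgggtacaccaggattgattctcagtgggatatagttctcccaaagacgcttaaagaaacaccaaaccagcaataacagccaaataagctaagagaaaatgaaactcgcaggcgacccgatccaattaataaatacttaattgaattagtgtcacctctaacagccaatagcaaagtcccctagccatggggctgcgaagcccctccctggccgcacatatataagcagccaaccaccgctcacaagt
Id2: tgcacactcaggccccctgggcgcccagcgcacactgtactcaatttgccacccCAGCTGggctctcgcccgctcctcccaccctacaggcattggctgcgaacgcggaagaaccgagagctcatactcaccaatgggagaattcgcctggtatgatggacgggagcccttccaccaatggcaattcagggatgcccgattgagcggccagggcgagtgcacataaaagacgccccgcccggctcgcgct
The Prdm1 run holds 2 E-boxes, the Id2 run 1 and the Eomes run none. RefSeq had 13 such entries for 8 of the 9 genes, and Bhlhe40 had none. An E-box was in 5 of the 13, against 66.2% of all 32851 promoter windows. Both strands were searched, and also for a RUNX core (TGTGGT), a T-box core (TCACAC), a STAT palindrome (TTCNNNGAA) and a TATA box (TATAAA), which 14.05%, 12.3%, 7.02% and 12.4% of all windows held. The RUNX core was in 1 member window, which belongs to Runx3 itself, and the STAT palindrome in 2 overlapping windows of Zeb2. The T-box core and the TATA box were in 0 of the 13. These are matches of letters in a window, and they say nothing of binding.

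Of the T-box factor genes, Tbx21 overlapped between the genotypes and Eomes did not. Tbx21 (GRCm38 chromosome 11, 97098071 to 97115331, minus strand) encodes T-bet, the main TH1 regulator. It stood at 88.3, 2.68, 12.4 and 3.38 CPM in WT replicates 1 to 4, and at 2.66, 10.1 and 69.0 CPM (lowest, median and highest) in KO. The groups overlapped fully, and WT replicate 1 and KO replicate 2 were far above the other libraries of their groups. Both carry library number 2. The means were 26.7 ± 41.3 CPM (SD, n = 4) and 20.6 ± 25.002 CPM (SD, n = 6), and the log2 fold change was -0.38 (SE 1.11, edgeR adjusted p = 0.884). Without WT replicate 1 the fold change turned to 1.74 (SE 1.06, edgeR adjusted p = 0.280).

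Eomes (chromosome 9, 118478212 to 118486132, plus strand) encodes eomesodermin, a T-box factor of cytotoxic and memory T cells. Its WT libraries held 6.74, 2.74, 2.16 and 1.80 CPM, and KO held 0, 0.101 and 0.812 CPM (lowest, median and highest). Every KO library was lower than every WT library, and KO replicates 2 and 3 had no count, where 3 counts would be 0.0637 and 0.0554 CPM. The log2 fold change was -3.77 (SE 1.35, edgeR adjusted p = 0.179), which did not pass. It passed with DESeq2 (-3.77, adjusted p = 0.0274) and limma-voom (-5.12, adjusted p = 0.0281). Its exons share 118 bases with an antisense gene, and the counting did not use strand. Eomes is also known in NK cells. The 6 NK cell markers summed to 168 to 273 CPM in KO and 8.19 to 66.5 CPM in WT, and nearly all of that sum was Klrb1c (means of 224 and 32.0 CPM). The other 5 had lower means in KO, among them Ncr1 at 0.593 CPM beside 5.35 CPM in WT. Of the 3 tested, Klrb1c was called higher and 0 lower, with a median log2 fold change of -3.16. Their part in the Eomes difference was not tested.

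Within a library, Tbx21 exceeded Eomes by a mean log2 ratio of counts of 7.08 ± 3.72 (SD, n = 6) in KO and 1.77 ± 1.66 (SD, n = 4) in WT. The difference of 5.30 had an exact two-sided permutation p of 0.0381, adjusted to 0.0533 over the 7 gene pairs compared, and the smallest p this design allows is 0.0048. The KO ratios spanned 3.66 to 12.7 and the WT ratios -0.03 to 3.71, so the groups overlapped at their edges. The highest KO ratios were those of KO replicates 2 and 3, which had no Eomes count, so their size depends on the added count. Within library numbers 4 to 8 the difference was 2.90, and within numbers 1 to 3, with 1 WT library, it was 6.41. Adding 5 counts in place of 0.5 before the ratio gave 3.83 and an adjusted p of 0.0467. Tbx21 was also set against Gata3, the TH2 regulator that opposes it. That ratio averaged -1.89 ± 1.50 (SD, n = 6) in KO and -0.66 ± 2.12 (SD, n = 4) in WT (difference -1.23, exact permutation p = 0.333, adjusted p = 0.333).

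Stat4 (chromosome 1, 51987148 to 52107189, plus strand) encodes the signal transducer of the IL-12 receptor. It stood at 9.45, 80.4, 49.5 and 63.9 CPM in WT and at 9.33, 22.7 and 42.4 CPM (lowest, median and highest) in KO. WT replicate 1 lay among the lowest KO libraries, and the other WT libraries lay above every KO library. Over all libraries the log2 fold change was -1.11 (SE 0.58, edgeR adjusted p = 0.352). With the receptor complex scaling, which moved the median of all genes to -0.92, Stat4 passed at -2.11 (edgeR adjusted p = 0.0458). It also passed with limma-voom quality weights, at -1.43 (adjusted p = 0.0113). Stat4 did not pass with the library number split added as a term beside genotype (-0.51, SE 0.38, edgeR adjusted p = 0.486). Nor did Stat4 pass with DESeq2 (-1.19, adjusted p = 0.233) or with limma-voom without the weights (-0.88, adjusted p = 0.456). Its exons share 1033 of 3872 bases with another gene model on the same strand, and the recorded command has no option to count reads that fall on 2 genes.

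Runx3 (chromosome 4, 135120652 to 135177990, plus strand) encodes a partner of T-bet that also silences Il4. Its WT libraries held 47.3, 7.47, 13.7 and 9.9997 CPM, and KO held 5.35, 12.5 and 36.4 CPM (lowest, median and highest). The groups overlapped, and WT replicate 1 was the highest library of all. The log2 fold change was -0.30 (SE 0.71, edgeR adjusted p = 0.855). Against Runx1, the relative that serves naive T cells, Runx3 was lower in KO on average: the log2 ratio averaged -1.65 ± 1.44 (SD, n = 6) in KO and 0.18 ± 0.38 (SD, n = 4) in WT (difference -1.83, exact permutation p = 0.0190, adjusted p = 0.0333). The groups overlapped at their edges, with the highest KO ratio at -0.289 and the lowest WT ratio at -0.296. Within library numbers 4 to 8 the difference was -1.07, and within numbers 1 to 3, with 1 WT library, it was -2.52. The call was lost in 8 of the 10 fits that left out a library, all but those without KO replicate 1 or 5, with adjusted p from 0.0278 to 0.125. Runx1 itself averaged 56.4 CPM in the KO and 18.6 CPM in the WT libraries, without passing (log2 fold change 1.599, edgeR adjusted p = 0.358). In KO it stood at 81.4 to 116 CPM in numbers 1 to 3 and at 6.54 to 26.7 CPM in numbers 4 to 8. In WT it stood at 45.2 CPM and at 5.36 to 16.8 CPM.

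Hlx (chromosome 1, 184727140 to 184732619, minus strand), a homeobox factor that acts with T-bet on Ifng, was close to the limit of detection. Its WT libraries held 4.98, 0.0571, 2.82 and 0.451 CPM, and KO held 0, 0.0567 and 0.203 CPM (lowest, median and highest). WT replicates 1, 3 and 4 lay above every KO library and WT replicate 2 lay among them. The gene failed the filter and was not tested. Without a filter its log2 fold change was -4.49 (edgeR adjusted p = 0.145). There were 23 counts in all KO libraries and 330 in all WT libraries.

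Id2 and Bhlhe40 were the most abundant members. Per kilobase of exon, Id2 stood at 258 ± 80.7 CPM (SD, n = 6) in KO and 146 ± 56.4 CPM (SD, n = 4) in WT, and Bhlhe40 at 76.4 and 80.1 CPM. On that scale Tbx21 (8.27 and 10.7), Stat4 (6.10 and 13.1) and Runx3 (3.18 and 3.92) came next in KO and WT, and Prdm1 followed at 0.0712 in KO and 3.72 in WT. Eomes, Hlx and Zeb2 were under 1 CPM per kilobase in both group means. The spreads of Tbx21, Stat4 and Runx3 overlapped in both groups, so their order is not resolved.

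Id2 (chromosome 12, 25093799 to 25097140, minus strand) encodes an inhibitor that binds E proteins and keeps them off DNA. It stood at 455, 255, 222 and 492.7 CPM in WT and at 389, 593 and 964 CPM (lowest, median and highest) in KO. The groups overlapped through KO replicate 4 and WT replicates 1 and 4. The log2 fold change was 0.82 (SE 0.33, edgeR adjusted p = 0.225), and with the receptor complex scaling it was 0.13 (edgeR adjusted p = 0.846). Against Id3, its relative in naive and follicular helper cells, the log2 ratio averaged -0.56 ± 0.46 (SD, n = 6) in KO and 0.12 ± 1.40 (SD, n = 4) in WT (difference -0.67, exact permutation p = 0.314, adjusted p = 0.333). Id3 had a positive fold change as well (1.24, edgeR adjusted p = 0.281).

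Bhlhe40 (chromosome 6, 108660629 to 108666925, plus strand) encodes a repressor that limits Il10 and favours interferon gamma in TH1 cells. It stood at 440, 340, 212 and 514 CPM in WT and at 184, 333 and 516 CPM (lowest, median and highest) in KO. The groups covered nearly the same range. The log2 fold change was -0.07 (SE 0.34, edgeR adjusted p = 0.934). Its close relative Bhlhe41 fell (log2 fold change -7.32, SE 1.51, edgeR adjusted p = 0.0271). Bhlhe41 was at 0.459, 7.64, 3.89 and 6.70 CPM in WT, with 4 KO libraries at 0 and the highest KO library at 0.135 CPM. Of the 10 fits that left out a library, 7 lost the call on Bhlhe41 (all but KO replicate 6 and WT replicates 1 and 3), and the adjusted p rose to 0.0947 without WT replicate 4. The log2 ratio of Bhlhe40 to Bhlhe41 was 13.99 ± 1.45 (SD, n = 6) in KO and 6.84 ± 2.04 (SD, n = 4) in WT, with no overlap (difference 7.15, exact permutation p = 0.0048, adjusted p = 0.0167). Because 4 KO libraries had no Bhlhe41 count, this difference depends on the added count, and with 5 counts added it was 4.57. The adjusted p was 0.0556 without KO replicate 2, 4 or 6.

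Zeb2 (chromosome 2, 44983632 to 45117395, minus strand) encodes a repressor of terminal effector cells that acts downstream of T-bet, and is also made by myeloid and B cells. It stood at 0.121, 15.9, 6.42 and 13.5 CPM in WT, while 5 KO libraries had no count and KO replicate 3 held 0.683 CPM. WT replicate 1 lay with the KO libraries, below KO replicate 3. The log2 fold change was -6.23 (SE 1.98, edgeR adjusted p = 0.135), and without WT replicate 1 it passed (-6.62, edgeR adjusted p = 0.0465). Within numbers 4 to 8 the 3 KO libraries held 0 counts and the 3 WT libraries 1275, so Zeb2 was at least 513-fold lower there, taking 3 counts in the summed KO libraries as the limit. Its exons share 467 bases with the antisense gene Zeb2os. The 8 macrophage and monocyte markers summed to 3.12 to 175 CPM in KO and 1050 to 6582 CPM in WT, with 2 of 8 lower by the test and none at 0 in every KO library. Their part in the Zeb2 difference was not tested.

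Zeb1, the relative that is higher in naive and memory T cells, did not pass (7.11 CPM for KO, 12.6 CPM for WT, log2 fold change -0.82, edgeR adjusted p = 0.667). The log2 ratio of Zeb2 to Zeb1 averaged -7.88 ± 2.45 (SD, n = 6) in KO and -0.84 ± 0.96 (SD, n = 4) in WT. The groups did not overlap, and the difference was -7.04 (exact permutation p = 0.0048, adjusted p = 0.0167). With 5 counts added it was -4.43 at the same adjusted p, which rose to 0.0556 without KO replicate 2, 4 or 6.

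Prdm1 (chromosome 10, 44437177 to 44528501, minus strand) encodes BLIMP-1, a repressor of effector T cells and of plasma cells that opposes BCL6. It stood at 7.44, 5.79, 28.4 and 41.3 CPM in WT and at 0, 0.190 and 1.04 CPM (lowest, median and highest) in KO. Every KO library lay below every WT library, and KO replicates 2, 3 and 5 had no count. The log2 fold change was -5.70 (SE 1.599, edgeR adjusted p = 0.0934). It passed without WT replicate 1 (-5.98, edgeR adjusted p = 0.0439), with DESeq2 (-5.80, adjusted p = 0.0024) and with limma-voom (-7.49, adjusted p = 0.0128). None of the other fits that left out 1 library passed, with edgeR adjusted p up to 0.274 (without WT replicate 4). Nor did Prdm1 pass with the library number split as a term (-5.37, edgeR adjusted p = 0.106). The 6 plasma cell markers summed to 75.3 to 747 CPM in KO and 797 to 5685 CPM in WT, with 2 of 5 tested lower and Tnfrsf17 at 0 in every KO library. Most of the sum in each KO library was Xbp1, whose mean was higher in KO (358 CPM) than in WT (222 CPM). Every other marker on the list had a lower mean in KO, among them Jchain (3.01 and 1610 CPM) and Mzb1 (8.42 and 706 CPM). The share of counts on immunoglobulin genes was 0.815 to 16.7% in WT and 0.0835 to 0.187% in KO. The part of plasma cell RNA in the Prdm1 difference was not tested.

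Bcl6 stood at 0.121, 70.4, 73.6 and 43.6 CPM in WT and averaged 13.04 CPM over the KO libraries (log2 fold change -1.85, edgeR adjusted p = 0.373). WT replicate 1 was the lowest of all 10 libraries for Bcl6. The log2 ratio of Prdm1 to Bcl6 averaged -6.99 ± 3.16 (SD, n = 6) in KO and 0.19 ± 4.02 (SD, n = 4) in WT (difference -7.17, exact permutation p = 0.0143, adjusted p = 0.0333). KO ratios ran from -11.0 to -3.45 and WT ratios from -3.60 to 5.81, so the groups overlapped at their edges. Because 3 KO libraries had no Prdm1 count, the size depends on the added count, and with 5 counts added the difference was -5.21 at the same adjusted p. Without WT replicate 1 the difference was -5.30 (adjusted p = 0.0625), and the call was also lost without KO replicate 2, 3, 4 or 6 and WT replicate 3 or 4 (adjusted p at most 0.0833).

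**Figure D2:**
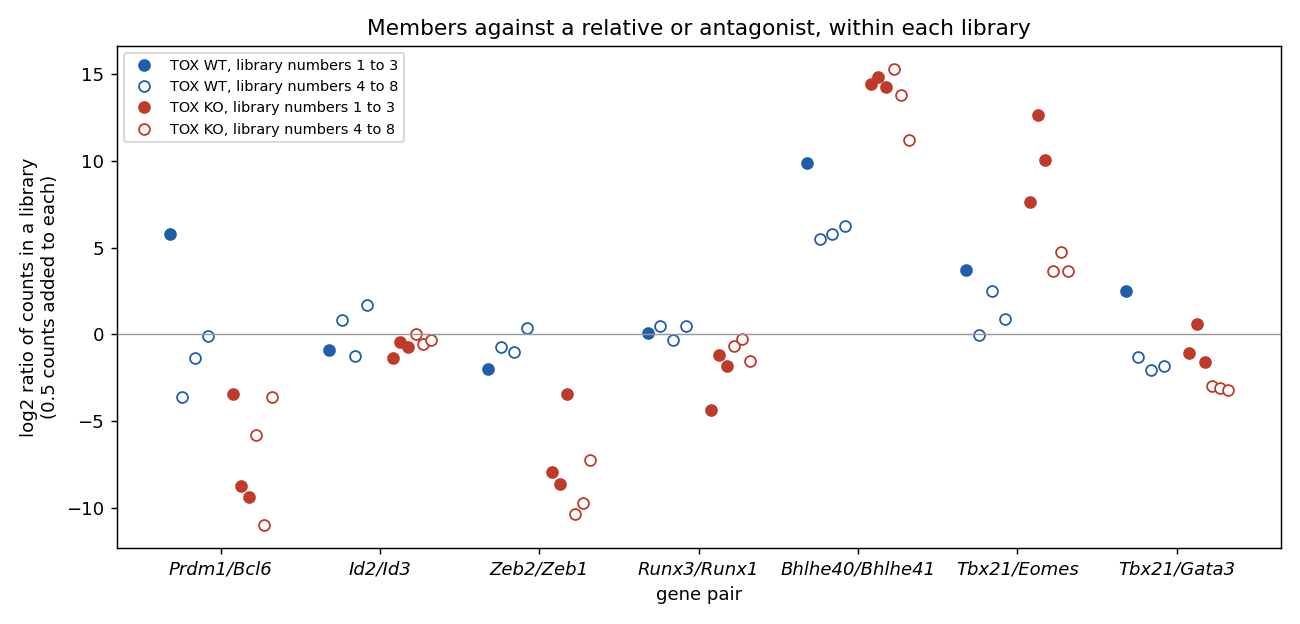
Log2 ratio of the counts of 2 genes in the same library, with 0.5 counts added to each, for the 7 pairs named on the horizontal axis (WT blue, n = 4, KO red, n = 6, filled points numbers 1 to 3). The Zeb2/Zeb1 and Bhlhe40/Bhlhe41 ratios separate the groups, while the Id2/Id3 ratios overlap.

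Tbx21 and Stat4 passed a test between library numbers. With the number split added to the edgeR fit beside genotype, an analysis chosen after the data were seen, Tbx21 was higher in numbers 1 to 3 (log2 difference 2.96, SE 0.69, edgeR adjusted p = 0.0183) and Stat4 was lower (-1.77, SE 0.39, edgeR adjusted p = 0.0147). Of all genes, 14.0% were called in this comparison, 9.02% higher and 4.95% lower. For Stat4, all 4 libraries of numbers 1 to 3 (12.3 ± 3.70 CPM, SD) lay below all 6 of numbers 4 to 8 (49.3 ± 19.98 CPM, SD), as was so in 1 direction or the other for 18.7% of all genes. Tbx21 stood at 48.2 ± 36.6 CPM (SD, n = 4) in numbers 1 to 3 and 6.24 ± 4.23 CPM (SD, n = 6) in numbers 4 to 8, and the libraries overlapped.

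Tbx21 and Stat4, the receptor-signal factor that induces it, differed in opposite directions between the number groups. The Stat4 call held in each of the 10 fits that left out a library (adjusted p at most 0.0435). The Tbx21 call was lost without KO replicate 2 (edgeR adjusted p = 0.0615) and without WT replicate 1 (0.131). The other 6 tested members did not pass. The nearest was Runx3 (log2 difference 1.50, edgeR adjusted p = 0.0966), which passed in 1 of the fits without 1 library (0.0297).

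Within numbers 4 to 8, with 3 libraries of each genotype, Eomes, Stat4, Zeb2 and Prdm1 each had all KO libraries below all WT libraries. Of all genes, 35.4% did not overlap there in 1 direction or the other, and the share with KO below WT was not counted separately. Stat4 stood at 34.0 ± 7.45 CPM (SD, n = 3) in KO and 64.6 ± 15.5 CPM (SD, n = 3) in WT (log2 fold change -0.87, edgeR adjusted p = 0.141). Prdm1 stood at 0.473 ± 0.525 CPM (SD, n = 3) in KO and 25.2 ± 17.98 CPM (SD, n = 3) in WT (-5.69, edgeR adjusted p = 0.0657). Only Zeb2 was called of the 8 tested (edgeR adjusted p = 0.0103), where 7.18% of all genes were called lower. Tbx21 was 6.33 ± 3.90 CPM (SD, n = 3) in KO and 6.16 ± 5.42 CPM (SD, n = 3) in WT, a log2 fold change of 0.04. Within numbers 1 to 3 there is 1 WT library, and there Stat4 was at 9.33 to 17.1 CPM in KO beside 9.45 CPM in WT, and Zeb2 at 0 to 0.683 CPM beside 0.121 CPM.

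**Figure D3:**
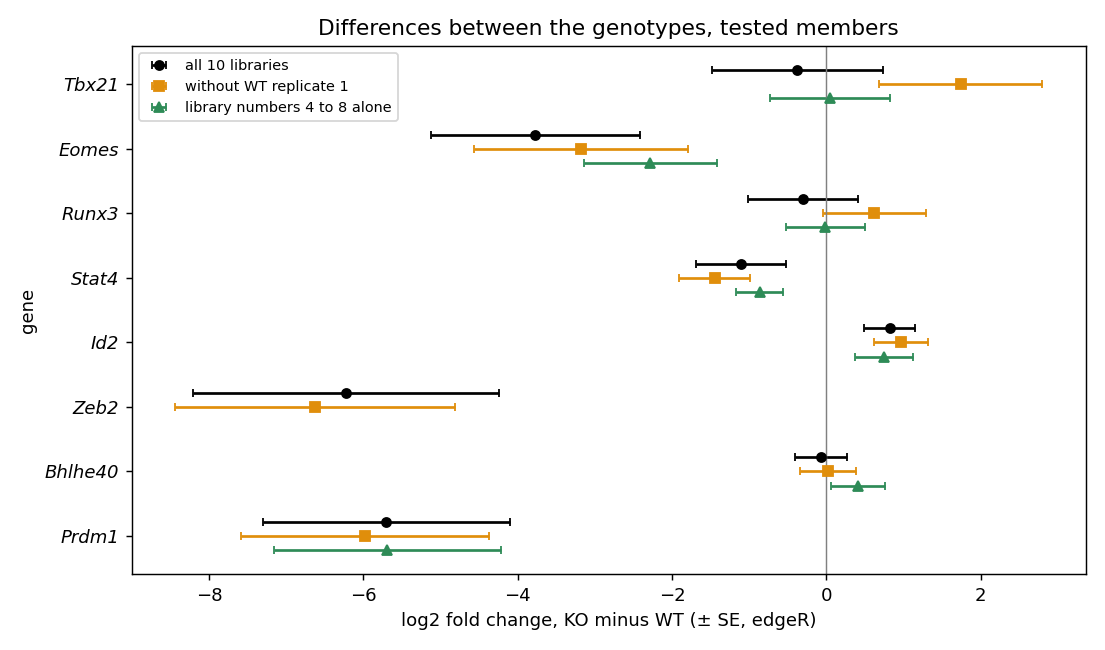
Log2 fold change, KO minus WT, with its SE from edgeR for the 8 tested genes, over all 10 libraries (circles), without WT replicate 1 (squares) and within library numbers 4 to 8 (triangles). Zeb2 has no triangle because its KO libraries held no count there. Tbx21, Runx3 and Bhlhe40 change sign without WT replicate 1 (1.74, 0.62 and 0.021), while Eomes, Zeb2 and Prdm1 stay negative and Id2 positive.

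Genes known to act on these factors showed 1 call. Of 17 cytokine receptor and signal genes tested, Il27ra rose in KO and 0 fell, with a median log2 fold change of 0.21 (0.429% of all genes were called higher and 2.70% lower). Il27ra, the IL-27 receptor chain, which is known to raise T-bet, stood at 191, 325, 596 and 271 CPM in WT and at 1194, 1382 and 1763 CPM (lowest, median and highest) in KO. The groups did not overlap, and the log2 fold change was 2.04 (SE 0.33, edgeR adjusted p = 0.0092). The call on Il27ra was lost without WT replicate 4 (edgeR adjusted p = 0.0606) and with the receptor complex scaling (1.08, edgeR adjusted p = 0.188). The receptor chains of IL-12 and IL-18, named here after their values were seen, did not pass. Il12rb2 averaged 0.581 CPM in the KO and 4.58 CPM in the WT libraries (log2 fold change -2.98, edgeR adjusted p = 0.420), and Il12rb1 at 85.7 and 29.5 CPM (1.54, edgeR adjusted p = 0.262).

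Genes that T-bet, RUNX3, EOMES, ZEB2 and BLIMP-1 are known to act on were looked at next. Of 23 TH1 and cytotoxic target genes tested (of 24 listed), 11 fell, 0 rose and 12 did not pass, and the median log2 fold change was -4.45. The 11 fell where 2.70% of all genes did. Ly6c2, which marks effector T cells and monocytes at their surface, had 12.3, 18.3 and 23.6 CPM (lowest, median and highest) in KO and 128 to 560 CPM in WT. Cx3cr1, a chemokine receptor of terminal effector cells and monocytes, had 0 to 0.152 CPM in KO and 15.6 to 49.9 CPM in WT (log2 fold change -9.17, edgeR adjusted p = 0.0042). The chemokines Xcl1 (-8.58) and Ccl5 (-4.52) and the granule protein gene Nkg7 (-3.37) fell too, with edgeR adjusted p of 0.0092, 0.0092 and 0.0170. Leaving out WT replicate 4 took Nkg7 over the threshold (0.0528).

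Several of these target genes are also made by myeloid cells, whose marker sums were lower in KO as given above, and their part was not tested. The genes with a positive fold change on the target list, named after their values were seen, were Tnf (0.65), Fasl (1.12) and Il2 (0.57), and none of them passed. The number of target genes lower in KO was 5 without WT replicate 4, 15 without WT replicate 1 and 5 within numbers 1 to 3.

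**Figure D4:**
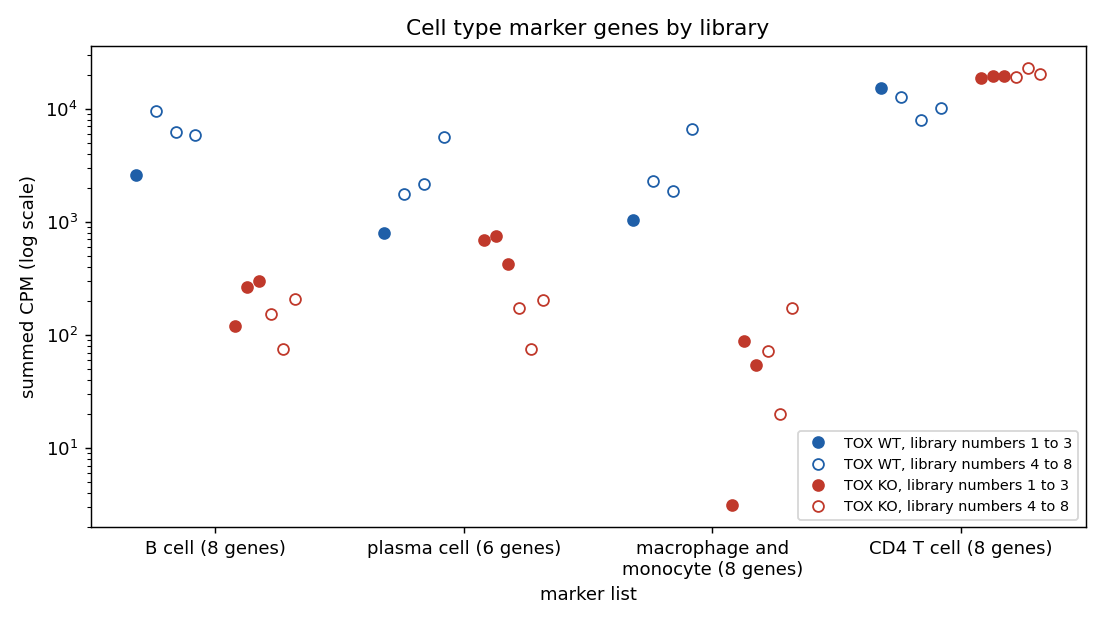
Summed TMM-scaled CPM (log axis) of marker genes of B cells, plasma cells, macrophages and monocytes, and CD4 T cells in each library (WT blue, n = 4, KO red, n = 6, filled points numbers 1 to 3). For the first 3 sums all KO libraries lie below all WT libraries, and the CD4 T cell sum is higher in every KO library. Most of the plasma cell sum in each KO library is Xbp1.

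The counterpart transcription factors, which are relatives of the members or factors of other T cell states, gave 1 call. Of 14 tested, Bhlhe41, the relative of Bhlhe40, fell, 0 rose, and the median log2 fold change was 0.79. Of the 7 tested partner genes (of 8 listed), which encode E proteins, corepressors and the RUNX cofactor CBFB, 0 were called, with a median of 0.64. Over all genes the median was -0.12, with 2.70% called lower and 0.429% called higher. The partners with the smallest p-values, named after their values were seen, were Hdac2 (log2 fold change 2.61, edgeR adjusted p = 0.178) and Tcf4, which encodes the E protein E2-2 (-4.01, edgeR adjusted p = 0.240).

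The genes whose profile over the 10 libraries was most like that of each member were found by the root mean square (RMS) difference of log2 CPM after centring, among 8075 or 8076 genes that averaged 8 CPM or more. Stat4 had the closest, Taf9b (RMS 0.17) and Pnrc2 (0.19), followed by Bhlhe40 with Mfsd11 (0.21) and Wdr12 (0.26), and Id2 with Fxyd5 (0.24) and Farp1 (0.28). Runx3 was nearest to Naa50 (0.53) and Med7 (0.55), and Tbx21 to Paxip1 (0.55) and Camkk2 (0.60). Eomes was nearest to the mitotic genes Cdca3 (0.72) and Birc5 (0.76). The members with many zeros had looser matches. Prdm1 was nearest to Gzmb (1.01) and Aldh3b1 (1.05), Hlx to Dnph1 (1.12) and Ccnb2 (1.21), and Zeb2 to the immunoglobulin segments Igkv8-24 (1.07) and Igkv12-46 (1.13). Points of these profiles share libraries, depth and the cell type markers described above.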

How the data were processed

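Per the labels' protocols, the SMART-seq v4 kit amplified the RNA. The authors counted read pairs by gene name, using featureCounts 1.6.2 and GENCODE M17 (GRCm38.p6) without strand or multi-mapping options, per the file headers, and deposited raw counts. STAR and FastQC are named without a version in the submitters' processing notes. From these counts, genes were kept by filterByExpr, scaled with TMM and tested for genotype alone with edgeR 4.0.16 in R 4.3.3, over all 10 libraries, with Benjamini-Hochberg adjustment over 14214 genes at 0.05. The SE is the size of the log2 fold change divided by the root of F, and the prior count of log2 CPM is 2. Ratios within a library were compared by exact permutation. The limits set at 3 counts cover counting error only, while the SE and SD include the spread between libraries. The edgeR procedure was also run on simulated counts, where changes were set only in genes averaging 8 CPM or more. Eomes, Hlx and Zeb2 average less over the 10 libraries, so that run does not cover them. Promoters came from RefSeq for GRCm38.p6. Named genes were the members, Tox, both genes of each pair, the 2 nearest profiles of each member and up to 6 called genes per list; 1 gene that this rule names is not reported here. The members and lists were chosen with earlier results of these data known. Alternatives were other scaling and filters, DESeq2 1.42.0, limma-voom (limma 3.58.1), blocks, a threshold of 0.01 and leaving out each library. The comparison of library numbers 1 to 3 with 4 to 8 was added after the data were seen.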

Additional observations from a re-analysis of the deposited data

Results flagged for a closer look

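Among 32 groups of values (each member and each gene ratio in KO and in WT), 6 held a library far from the others. The rule flags about 1 group in 20 by chance where values are independent and normally distributed. These values are skewed and share genes and libraries, so the number flagged cannot be set against that rate. Tbx21 was highest in KO replicate 2 at 69.0 CPM, with the next KO library at 25.6 CPM. It was highest in WT replicate 1 at 88.3 CPM, with the next WT library at 12.4 CPM. Runx3 was highest in the same WT library at 47.3 CPM, with the next at 13.7 CPM. The log2 ratio of Tbx21 to Gata3 was also highest in WT replicate 1, at 2.49. Zeb2 stood at 0.683 CPM in KO replicate 3, and the other 5 KO libraries had no count. The log2 ratio of Bhlhe40 to Bhlhe41 was lowest in KO replicate 6 at 11.2, the library with 6 Bhlhe41 counts.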

How the results depend on the processing

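Over the alternatives run, Eomes and Prdm1 kept a negative and Id2 a positive log2 fold change. The calls on members moved: 3 were lower when scaled to T cell receptor complex genes, 3 with DESeq2, 3 with limma-voom, 4 with quality weights, 1 within library numbers 4 to 8, and 0 to 2 without 1 library, the 2 without WT replicate 1. Bhlhe40, near 0, changed sign without immunoglobulin genes in the scaling (0.012), without a filter (0.0089), with the block by library number (0.34) and within numbers 4 to 8 (0.40), and ran from -0.26 to 0.23 without 1 library. Tbx21 changed sign with limma-voom (0.16), with quality weights (1.37) and within numbers 4 to 8 (0.043), and ran from -1.14 to 1.74 without 1 library. Runx3 was 0.30 with quality weights and ran from -0.62 to 0.62 without 1 library. Within numbers 1 to 3, with 1 WT library, Stat4 was 0.53, Zeb2 0.95, and the ratio differences were 0.031 for Id2/Id3, 4.66 for Bhlhe40/Bhlhe41, -12.98 for Prdm1/Bcl6, -3.18 for Tbx21/Gata3 and -4.69 for Zeb2/Zeb1. The cause of these changes was not tested.

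Without 1 library the ratio differences ran from 6.69 to 8.16 for Bhlhe40/Bhlhe41, from -8.44 to -5.30 for Prdm1/Bcl6, from -2.10 to -1.29 for Runx3/Runx1 and from -7.93 to -6.55 for Zeb2/Zeb1, and each of these 4 missed the threshold in some such fits, which hold fewer libraries. Tbx21/Eomes passed with 5 counts added (3.83).

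Whether the replicate numbers of the titles pair the libraries was not settled. The deviations of KO and WT libraries with the same replicate number correlated at 0.41, -0.37, -0.38 and 0.39. Both negative values came from libraries on opposite sides of the library number split, and both positive values from libraries on the same side. The check therefore cannot tell pairing from that split. Libraries sharing a library number correlated at 0.45 (number 2) and 0.21 (number 6). For number 6 another WT library matched better. With the replicate block 0 genes were higher and 0 lower, 0 members and 0 genes of each list were called, and Tbx21 was 0.87 and Runx3 0.38. The block by library number, where 2 numbers occur in both genotypes, also called 0 genes in each direction. Both blocks use up most of the libraries and leave little to estimate spread from. Their 0 calls therefore cannot tell whether the genotype differences hold.

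Of all genes, 61 were higher and 384 lower in KO. These became 17 and 1862 when scaled to T cell receptor complex genes, 613 and 999 with DESeq2, 204 and 680 with limma-voom, 2562 and 2768 with quality weights, 121 and 1033 within numbers 4 to 8, 316 and 79 within numbers 1 to 3, and 7 and 121 at a threshold of 0.01. There were 39 higher without a filter, 116 higher with the library number split as a term and 222 lower without immunoglobulin genes in the scaling. Without 1 library, 10 to 443 were higher and 143 to 1201 lower, with the extremes from WT replicates 4 and 1.

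The 11 target genes lower in KO became 7 without immunoglobulin genes in the scaling, 18 with receptor scaling, 19 with DESeq2 and with quality weights, 5 within numbers 1 to 3, 5 at 0.01 and 5 to 15 without 1 library. The 1 upstream gene higher became 0 with receptor scaling, 2 with a filter of 1 CPM, 4 with DESeq2, 4 with limma-voom, 7 with quality weights, 2 with the library number split as a term and 0 to 5 without 1 library, and 1 was lower with receptor scaling and 4 with quality weights. Counterpart factors higher numbered 2 with DESeq2, 1 with limma-voom, 4 with quality weights and 0 to 1 without 1 library. Counterpart factors lower numbered 0 with the 1 CPM filter, within numbers 1 to 3 and at 0.01, 2 with limma-voom and within numbers 4 to 8, 5 with quality weights and 0 to 2 without 1 library. Among partners, 1 was higher with DESeq2, 1 higher and 1 lower with quality weights. Members higher in library numbers 1 to 3 numbered 0 to 2 without 1 library.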
